A study of Mus musculus with 9 samples.

Results

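Caloric restriction (CR) was compared with repeated fasting and refeeding (RFR) in the amygdala, hypothalamus and prefrontal cortex of mice. The 6 arrays of these diets, 1 per region and diet, were taken by their diet labels from the 9 arrays of the study and paired by region. The other 3 arrays, from freely fed mice (AD, ad libitum), are given for reference and entered the fitted model. All mice were wild-type male C57BL/6J mice, 8 to 9 weeks old, killed on day 8 in the early afternoon under ether and perfused with cold saline before dissection. The RFR mice were fasted on day 0 and fed freely on day 1, and so on in turn. The CR mice, kept in a cage of their own, received over each 2-day cycle 0.5 of the amount eaten by RFR mice on a feeding day. Each fasting or feeding period began in the evening, so by a strict count from day 0 the RFR mice were killed during a feeding period, although the labels do not state the feeding state at death. For each diet and region, equal amounts of RNA from 4 mice were pooled, and 400 ng was labelled for 1 array. There are therefore no replicate arrays, and the 3 regions of a diet are probably from the same animals. The spread used for testing is that between regions, and p-values for diet are too small as measures of the spread between mice.

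Both regimens limit food, but in different temporal patterns. During a fast, blood glucose and insulin fall, glucocorticoids rise, and fat-derived fuels and ketone bodies take over part of the energy supply, changes that refeeding turns back. In the hypothalamus, neurons that make Agrp and Npy drive feeding, neurons that make Pomc restrain it, and orexin and melanin-concentrating hormone neurons link hunger to arousal. The amygdala and the prefrontal cortex take part in emotion and decision. Feeding time also sets the phase of circadian clocks in many tissues, and the hormones of the anterior pituitary, prolactin and growth hormone among them, are released in patterns that depend on stress and nutrition.

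A level is the log2 of the processed spot signal after division by the array's 75th percentile, and a difference is CR minus RFR, so that positive values are higher in CR. In each sequence of 3 values the order is amygdala, hypothalamus, prefrontal cortex. Each array had 43379 noncontrol spots, and the scanner software called 25958 to 30199 of them well above background, that is, distinctly brighter than their surroundings. The CR amygdala array had the most such spots and was the single array of its slide and scan day. The hypothalamus pair shared a slide, whereas the CR and RFR arrays of prefrontal cortex lay on different slides, so diet and slide can be told apart only in hypothalamus. The region labels were borne out by the orexin precursor Hcrt, whose level was 6.62 to 7.19 on the 3 hypothalamus arrays and -3.50 to -0.88 on the others. Cyp26b1, a retinoic acid-degrading enzyme of amygdala neurons, was 2.87 to 3.40 on the amygdala arrays and at most 0.13 elsewhere. Tbr1, a transcription factor of deep cortical neurons, was -0.90 to 0.13 in prefrontal cortex and at most -1.25 elsewhere. The labels place the prefrontal cortex slice 2.5 to 3.5 mm posterior to bregma, behind the slice of the other 2 regions, which is not where the prefrontal cortex lies.

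Prl, the prolactin gene, and Gh, the growth hormone gene, were the 2 genes that differed between the diets in the limma fit, and both were lower in CR. Prl (NM_011164) lies at chr13:27057570-27065204 and Gh (NM_008117) at chr11:106300261-106303703 in mouse assembly GRCm38.p6. The level of Prl was -1.43, -2.04 and -1.84 on the RFR arrays, against -8.19, -7.38 and -7.40 on the CR arrays and -7.66, -7.16 and -7.38 on the AD arrays. Every RFR array showed Prl well above background, no CR or AD array did, and the CR and AD levels overlapped. RFR exceeded CR at least 12.7-fold, a bound that sets each dim value to the lowest well-above-background signal of its array, and exceeded AD at least 11.3-fold. By region the bound was 25.6-fold in amygdala, 8.22-fold in hypothalamus and 9.70-fold in prefrontal cortex. The limma fit called Prl lower in CR (Benjamini-Hochberg adjusted p = 0.0014), in 3 of 3 regions. Its fitted difference of -5.88 ± 0.26 (SE) and its p rest on CR and AD signals that were not well above background. Only the bound is therefore a measured size, and it holds for the main background correction alone. The adjusted p ranged from 3.7e-05 to 0.20 over 18 alternatives (limma), and 16 of them kept it under 0.05. It missed with the 6 CR and RFR arrays alone, at 0.052, and with slide as a fixed term, at 0.20. The alternatives reuse the same arrays, so their count is no independent support.

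The level of Gh was -3.18, -3.65 and -3.75 on the RFR arrays, -7.33, -7.38 and -7.43 on the CR arrays, and -7.81, -6.72 and -7.50 on the AD arrays. Gh too was well above background in RFR alone. RFR exceeded CR at least 3.76-fold and AD at least 3.36-fold. The limma fit called Gh lower in CR (adjusted p = 0.014), in 3 of 3 regions, with a fitted difference of -3.85 ± 0.27 (SE). This difference and its p rest on dim CR and AD signals in the same way. With dim values raised to the lowest well-above-background signal the difference was -1.91 (limma, adjusted p = 0.10). This call held in fewer alternatives than that of Prl. It held in 6 of 17, and in none of the 6 that left out 1 array, where the adjusted p lay between 0.080 and 0.13 (limma). Each gene has a single probe on the array, and each passed the filter on dim genes through its RFR arrays alone. The p-values are therefore not independent of that filter. With no filter the adjusted p was 0.011 for Prl and 0.077 for Gh (limma). Of 12622 genes fitted, 2 (0.0158%) were lower in CR at an adjusted p under 0.05 and 0 (0%) were higher. Before adjustment, 1032 genes were lower (8.18%) and 833 higher (6.6%) at p under 0.05. With slide as a fixed term, limma called 0 genes, with 1697 at an unadjusted p under 0.05. In that fit Prl was at -5.64 (limma, adjusted p = 0.20) and Gh at -4.01 (adjusted p = 0.37), and within the slide that holds the hypothalamus pair the bounds are those of hypothalamus, at least 8.22-fold for Prl and 2.70-fold for Gh.

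**Figure D1:**
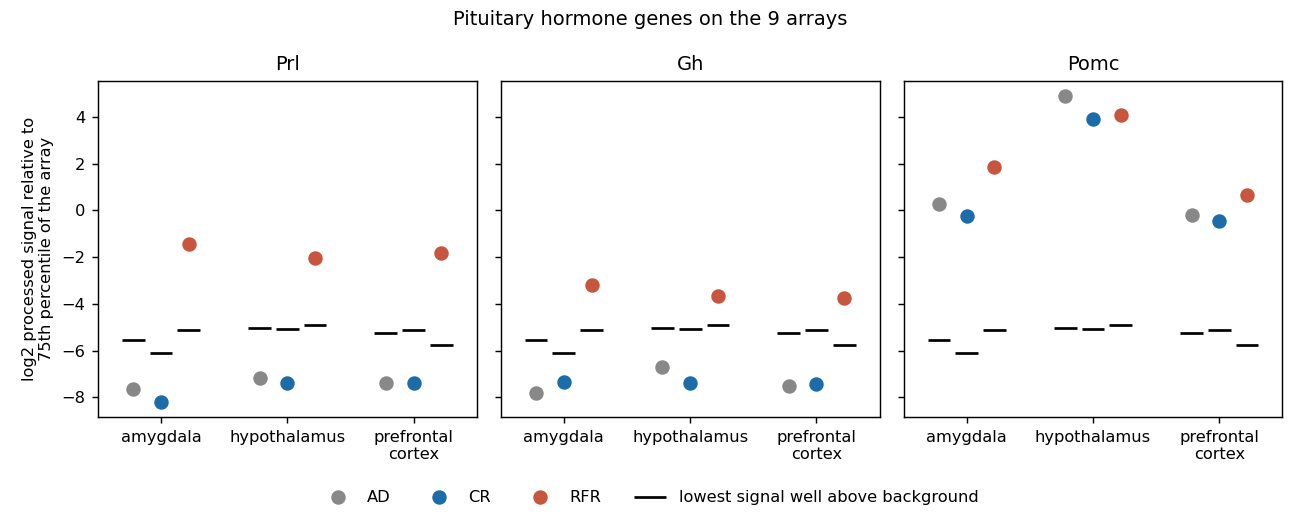
Level (vertical axis, log2 signal over the array's 75th percentile) of Prl, Gh and Pomc in the 3 regions, with 1 point per array and a black bar at the lowest signal well above background of that array. Prl and Gh lie above the bar on the 3 RFR arrays only, and Pomc lies above it on all 9 arrays.

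Transcription of Prl and Gh in the pituitary depends on the POU-domain factor Pit-1, encoded by Pou1f1. The Prl promoter is shown because its transcript gave the largest difference of the comparison. The stretch runs from 250 bases before the gene's start to 50 bases after it (RefSeq, GRCm38.p6, chr13:27057320-27057619, plus strand), with matches to the Pit-1 motif ATGNATA, searched on both strands, in capitals.
Prl promoter: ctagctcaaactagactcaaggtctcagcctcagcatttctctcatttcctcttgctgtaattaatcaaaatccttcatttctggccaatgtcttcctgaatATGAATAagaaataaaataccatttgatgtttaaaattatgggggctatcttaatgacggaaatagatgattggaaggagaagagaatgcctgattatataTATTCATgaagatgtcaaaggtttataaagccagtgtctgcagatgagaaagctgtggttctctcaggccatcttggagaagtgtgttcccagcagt
The match ATGAATA begins at position -148 on the plus strand, and TATTCAT, its form on the minus strand, covers bases from position -47. Of 32851 promoter windows of this length, 2903 (8.84%) held at least 1 match and 494 (1.5%) held 2 or more. Pou1f1 itself held 2 matches in 1 of its 2 windows and none in the other. None of the windows of Pomc, Lhb, Fshb, Tshb, Cga, Tbx19, Gnrhr and Lhx3 held one. A match is a match of letters and was not tested as a binding site.

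None of the other pituitary genes passed the threshold. Of 16 pituitary hormones and regulators on the array, Fshb, Pou1f1, Tbx19, Ghrhr, Gnrhr and Lhx3 were well above background on none of the 6 CR and RFR arrays. Pou1f1 itself was at -7.38, -6.96 and -7.82 on the RFR arrays and at -8.30, -7.30 and -7.35 on the CR arrays. Tshb, the thyrotropin beta subunit, and Pitx1, a pituitary transcription factor, were seen in hypothalamus alone. Cga, the alpha subunit shared by thyrotropin and the gonadotropins, was high in hypothalamus, at 0.91 in CR and 0.82 in RFR, and below -4.0 in the other regions. In amygdala and prefrontal cortex it was at -4.91 and -5.72 in CR, -4.10 and -4.81 in RFR and -6.18 and -6.07 in AD. It was well above background on 5 of the 6 CR and RFR arrays (limma, adjusted p = 0.49). Pomc, which encodes the precursor of corticotropin and of the melanocortins, had levels of -0.24, 3.92 and -0.44 in CR and 1.84, 4.07 and 0.64 in RFR. The difference of -2.08, -0.15 and -1.08 did not pass the threshold (limma, adjusted p = 0.30). The summed level of the list, in units of the array's 75th percentile, was 1.89, 18.3 and 1.28 in CR, 5.34, 20.2 and 2.52 in RFR and 2.36, 32.5 and 1.58 in AD, so RFR exceeded CR in each region and AD was the highest in hypothalamus. Pomc was the brightest member on every array and so weighs most in this sum. Whether RNA from pituitary tissue contributed to the RFR arrays was not tested.

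Receptors and signalling genes of both hormones showed small differences. The prolactin receptor Prlr differed by -0.48, 0.16 and 0.45, and the growth hormone receptor Ghr by -0.02, 0.16 and 0.13. Socs3, an inhibitor of cytokine signalling that is induced by leptin and by these hormones, was lower in CR by 1.01, 0.55 and 0.23, and its relative Socs1 by 0.50, 0.11 and 0.45 (limma, adjusted p = 0.19 and 0.28). Igf1, the main growth hormone target in liver, differed by -0.44, 0.48 and -0.30. Of 15 measured members of this list, 3 were higher in CR in all regions (20%) and 2 lower (13.3%), no more than the 22.3% and 24.4% of all genes with 1 direction, and none passed the threshold.

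A further 6 genes were well above background on all arrays of one of these diets and none of the other, which makes 4 of 16358 genes (0.0245%) in each direction. Tcl1b5 was seen in RFR, at -4.77, -1.70 and -2.92, at least 4.96-fold above CR, but it was also bright on the AD amygdala array, at -2.72 (limma, adjusted p = 0.27). Jchain, the joining chain of polymeric antibodies, was seen in RFR with 1 of its 2 probes and exceeded CR at least 1.49-fold. Acss3, a mitochondrial short-chain acyl-CoA synthetase, was seen in CR, at -5.00, -2.01 and -2.20 against -6.72, -6.36 and -6.04 in RFR. It was at least 4.56-fold higher in CR, without passing the threshold (limma, adjusted p = 0.12). Syt2, a calcium sensor of synaptic vesicles, and Clec14a, an endothelial lectin, were at least 1.67-fold and 1.58-fold higher in CR, Clec14a with 1 of its 2 probes. For Cldn23, a claudin, 1.46-fold is the measured mean difference and no bound (limma, adjusted p = 0.39). Cldn23 was also well above background on all 3 AD arrays.

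Among 11305 genes well above background on all 6 arrays, 2754 (24.4%) were lower in CR in all 3 regions and 2522 (22.3%) were higher. With the authors' deposited table in place of the scanner values the counts were 1726 and 3199, so the balance of directions depends on the scaling. The medians of the regional differences were -0.06, 0.04 and -0.02, and the SD over genes was 0.38, 0.28 and 0.29. Across genes, the differences correlated with r = 0.27 between amygdala and hypothalamus, and with r = 0.45 between prefrontal cortex and either of them. Genes are not independent replicates and the regions share pools of mice, so these values are descriptions. A difference of at least 0.5 in every region was found for 81 genes lower in CR (0.716%) and for 51 higher (0.451%).

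The 12 genes with the largest shared reduction in CR had mean differences of -1.13 to -0.92, or folds of 1.89 to 2.19. None passed the threshold, with adjusted p from 0.061 to 0.15 (limma). Dnase1l2, an endonuclease known from keratinising epithelium, had levels of -2.76, -3.11 and -3.34 in CR, -1.74, -1.94 and -2.22 in RFR and -2.34, -2.29 and -2.64 in AD. The CR and RFR levels did not overlap, and AD lay between them in each region. Dok3, an adaptor that restrains immune receptor signalling, was at -2.22, -2.67 and -2.33 in CR and at -0.95, -1.65 and -1.42 in RFR, again without overlap. Stac3, a component of the calcium release machinery of skeletal muscle, was at -0.15, 0.04 and -0.31 in CR and at 0.90, 0.87 and 0.67 in RFR. Thpo, the platelet growth factor thrombopoietin, was at -0.65, -0.71 and -0.09 in CR and at 0.45, 0.16 and 0.87 in RFR, and a second probe gave a smaller mean difference of -0.49.

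The other 8 genes have varied roles. Insl5, an insulin-like gut peptide known in mice to stimulate feeding, differed by -1.41, -0.91 and -0.92. Cfp, the complement factor properdin, differed by -1.02, -0.91 and -0.83, the metalloproteinase gene Adam8 by -0.85, -1.23 and -1.19, and the collagen gene Col11a1 by -1.03, -0.87 and -0.86. Acrbp, a proacrosin-binding protein of sperm and platelets, differed by -1.34, -0.98 and -0.98, and by -0.61 on average with another probe. Tmc4, a transmembrane channel-like gene, differed by -1.41, -1.03 and -0.96, Wscd2 by -0.92, -1.04 and -1.17, and Srrm3, a neuronal splicing regulator, by -1.18, -1.02 and -0.85. AD lay between CR and RFR in all regions for 11 of these 12 genes, against 46 of the 81 genes with a shared reduction of at least 0.5 (56.8%). Prl and Gh differ from this group in that no CR or AD array showed them well above background. The AD levels of Prl also lay between CR and RFR in each region, but the order of such dim AD and CR values carries no weight.

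Of the 12 genes with the largest shared excess in CR, the leading pair were globins, with folds of 2.59 and 2.50. Hba-a1, an alpha-globin gene, was at 2.05, 1.77 and 3.18 in CR, 0.76, -0.20 and 2.32 in RFR and 2.07, 1.23 and 2.50 in AD. CR exceeded RFR within each region, by 1.28, 1.97 and 0.87 (limma, adjusted p = 0.15), and RFR was the lowest of the 3 diets in each. Hbb-bt, a beta-globin gene, differed by 1.16, 1.93 and 0.87. The globin genes have near-identical copies that these probes may not separate. Alas2, the erythroid enzyme that starts haem synthesis, differed by 1.32, 2.01 and 0.38 in the same direction, but its RFR hypothalamus signal was not well above background. Of 5 measured members of the erythroid list, these 2 globins were higher in CR in all regions and 1 other gene was lower. The summed level of the list was 73.1, 41.8 and 112 in CR and 89.7, 34.8 and 110 in RFR, lower in CR in amygdala. Bpgm, which makes the red cell regulator of oxygen release, differed by -0.24, 0.05 and 0.17, and Fech, the last enzyme of haem synthesis, by 0.14, 0.26 and -0.02. Epb42, a red cell membrane protein, was well above background on none of the 6 arrays. Globin transcripts are abundant in red cells, but their source in these samples was not tested. How much blood each perfused sample held was not measured.

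Mt1, a metal-binding and stress-induced metallothionein, was at 4.55, 5.38 and 4.70 in CR, 3.86, 4.27 and 3.77 in RFR and 4.74, 4.45 and 4.11 in AD. Its differences of 0.69, 1.11 and 0.94 did not pass the threshold (limma, adjusted p = 0.16). Depp1, a FoxO target induced by fasting, was at -2.52, -3.17 and -2.10 in CR, -3.65, -3.96 and -2.96 in RFR and -2.76, -2.92 and -1.83 in AD, so RFR was again the lowest. Snrpe, a core protein of splicing ribonucleoproteins, had the smallest adjusted p of the 12, at 0.061 (limma), with levels of 1.34, 1.31 and 0.90 in CR and 0.40, 0.43 and 0.19 in RFR that did not overlap. Etnppl, an astrocyte enzyme that degrades phosphoethanolamine, differed by 0.68, 0.71 and 0.71, and Adgrl4, an endothelial adhesion receptor, by 1.14, 0.92 and 0.68. The small GTPase gene Rhob differed by 0.79, 0.84 and 0.83, Clec2d, a ligand of natural killer cell receptors, by 0.85, 0.90 and 0.78, and Evi2a by 0.73, 0.78 and 0.74. Nipal4 differed by 0.98, 0.72 and 0.95 and Dipk1c by 1.06, 0.83 and 0.68. AD lay between CR and RFR in all regions for 2 of these 12 genes, against 5 of the 51 genes with a shared excess of at least 0.5 (9.8%).

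**Figure D2:**
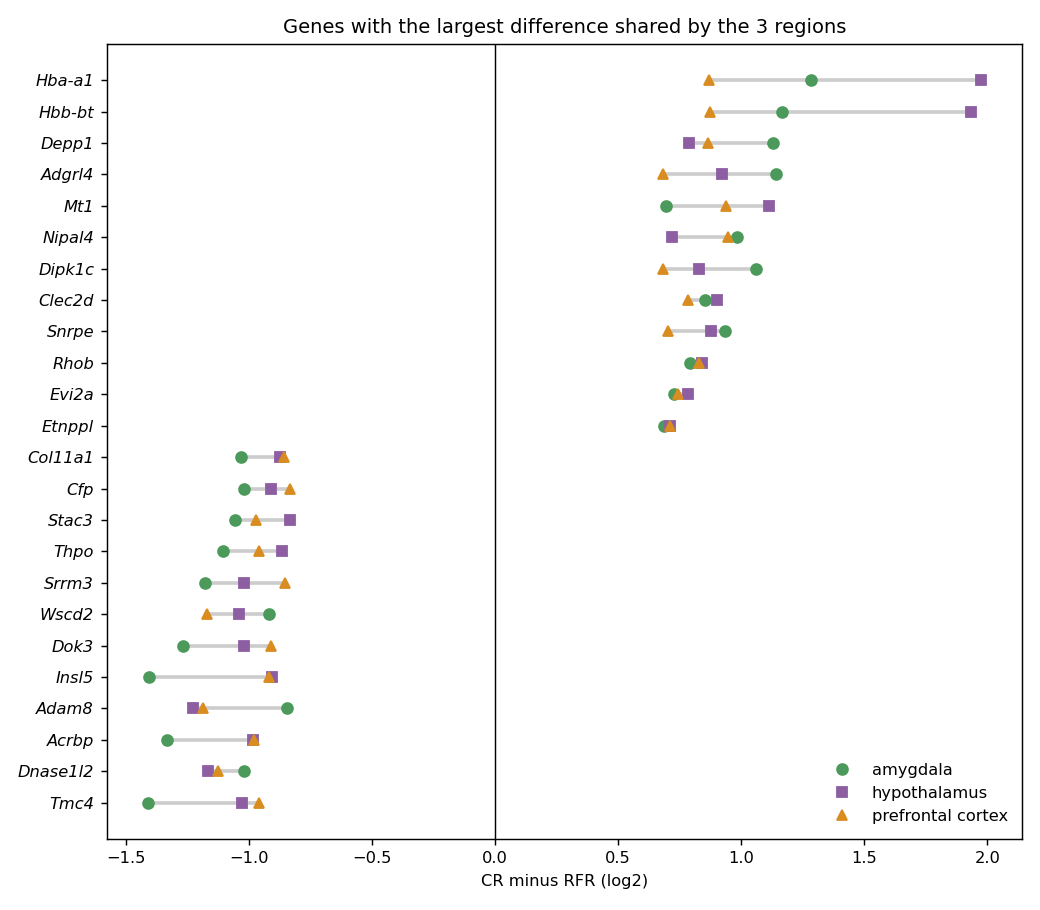
CR minus RFR on the log2 scale (horizontal axis) for the 12 genes with the largest shared difference in each direction, with 1 symbol per region and a grey line over their range. The genes lower in CR span means of -1.13 to -0.92, and the globins Hba-a1 and Hbb-bt stand furthest to the right in hypothalamus.

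Of the lists with at least 5 measured members, the myelin genes had the highest share with 1 direction in all regions. Oligodendrocytes wrap axons in myelin, and 14 of 15 measured oligodendrocyte and myelin genes were higher in CR in all 3 regions and none lower, against 22.3% and 24.4% of all genes. Cldn11, which seals the myelin lamellae, was at 1.79, 2.59 and 1.46 in CR, 1.02, 1.66 and 0.79 in RFR and 1.66, 1.63 and 0.77 in AD. Aspa, an enzyme that supplies acetate for myelin lipids, differed by 0.74, 0.47 and 0.49, Mbp, myelin basic protein, by 0.62, 0.27 and 0.54, and the surface glycoprotein Mog by 0.66, 0.13 and 0.59. CR exceeded RFR in each of these comparisons, while AD lay near RFR in some regions and near CR in others.

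The median difference of the list relative to all genes was 0.52, 0.23 and 0.55 by region and 0.42 over the means. It was 0.39 to 0.48 with another scaling or background correction, the authors' table, all probes, or without the amygdala pair. Of the 15 genes, 9 had an unadjusted p under 0.05, all higher in CR, against 742 of 11305 genes higher (6.56%) and 952 lower (8.42%). None passed after adjustment, where limma gave adjusted p of 0.15 to 0.73. The exception to the shared direction was Olig2, a transcription factor of the whole oligodendrocyte lineage, with 0.20, 0.09 and -0.02. The summed level of the list was 163, 239 and 114 in CR, 113, 183 and 64.9 in RFR and 134, 224 and 87.8 in AD, so CR was highest and RFR lowest in each region. In such tissue pieces, fewer cells of a type and less RNA per cell cannot be told apart, and neither can the amount of white matter in a dissection.

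**Figure D3:**
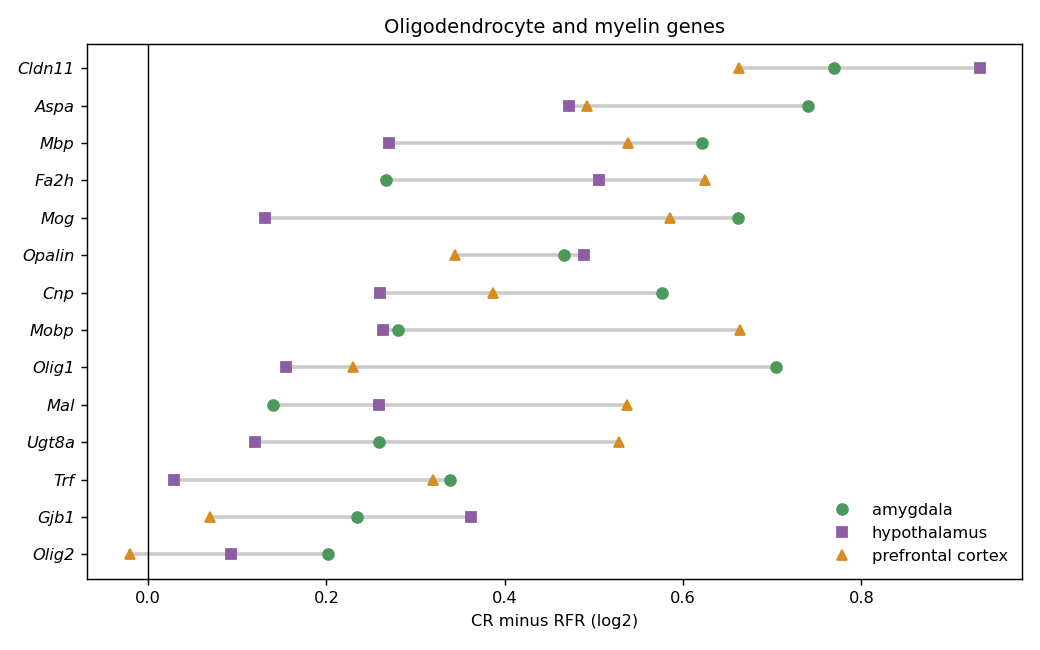
CR minus RFR on the log2 scale (horizontal axis) for 14 of the 15 measured oligodendrocyte and myelin genes, with 1 symbol per region and a grey line over their range. All symbols lie right of 0 except that of Olig2 in prefrontal cortex, at -0.02.

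Vascular genes leaned the same way to a smaller extent. Of 19 endothelial and mural genes, 10 were higher in CR in all regions (52.6%, against 22.3% of all genes) and 1 was lower (5.26%, against 24.4%), and the relative median was 0.18. Abcb1a, the drug efflux pump of the blood-brain barrier, differed by 0.82, 0.82 and 0.58, and Kdr, a receptor for vascular endothelial growth factor, by 0.52, 0.58 and 0.38 (limma, adjusted p = 0.18 for both). The smooth muscle gene Acta2 was the member lower in all regions, by 0.13, 0.11 and 0.40. The summed level did not follow this lean in every region. It was 57.2, 60.4 and 64.7 in CR and 57.9, 50.6 and 67.9 in RFR, so it was lower in CR in amygdala and prefrontal cortex.

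The 3 Period genes, which encode repressors of the circadian clock, were lower in CR in every region. Per1 was at 2.04, 1.59 and 2.12 in CR, lower than in RFR by 0.47, 0.49 and 0.88. Per2 was at -1.11, -0.78 and -1.04 in CR and -0.56, -0.35 and -0.27 in RFR, without overlap. Per3 was at -3.92, -4.10 and -4.03 in CR and -3.29, -3.38 and -3.40 in RFR, again without overlap, but its AD levels ranged from -5.03 to -3.24. Adjusted p values were 0.18, 0.16 and 0.48 (limma). Bhlhe41, another repressor of the clock, differed by -0.66, -0.45 and -0.54. The activators Clock and Arntl were slightly higher in CR, by 0.40, 0.25 and 0.09 and by 0.20, 0.13 and 0.22. In all, 8 of 18 clock genes were lower in CR in all regions (44.4%, against 24.4% of all genes) and 5 higher (27.8%, against 22.3%), and the relative median of -0.12 turned to 0.07 with the authors' table. All mice were killed at the same clock time, but when the CR mice ate their ration was not recorded in the labels.

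**Figure D4:**
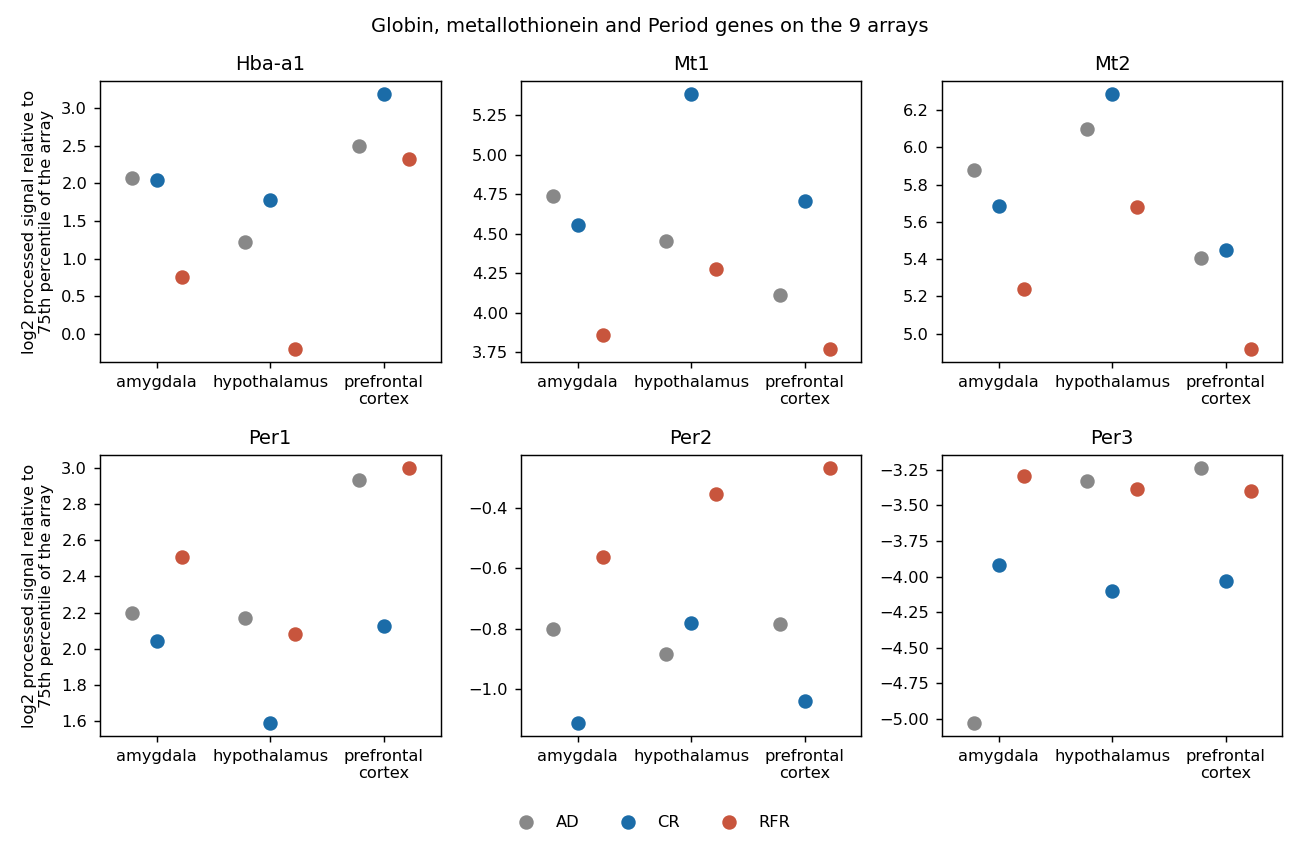
Log2 signal relative to the array's 75th percentile (vertical axes, each panel on its own scale) of Hba-a1, Mt1, Mt2, Per1, Per2 and Per3 in the 3 regions, with 1 point per array. In each region CR lies above RFR for the globin and the metallothioneins and below RFR for the Period genes.

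Glucocorticoid-induced genes pointed both ways. Of 16 measured members of a list that includes the metallothioneins, 7 were higher in CR in all regions (43.8%, against 22.3% of all genes) and 3 lower (18.8%, against 24.4%), with a relative median of 0.12. An unadjusted p under 0.05 was found for 7 members, 6 of them higher, and for 1694 of 11305 genes (15%). Mt2 differed by 0.44, 0.61 and 0.53, the kinase gene Sgk1 by 0.42, 0.66 and 0.63, and Plin4, a lipid droplet protein, by 0.34, 0.79 and 0.41 (limma, adjusted p = 0.15, 0.20 and 0.19). Sult1a1, a sulphotransferase, differed by 0.37, 0.97 and 0.22. Fkbp5, a sensitive target of the glucocorticoid receptor, differed by 0.21, -0.33 and -0.11, and Tsc22d3, another direct target, by -0.29, -0.01 and -0.03.

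Among 20 immediate early genes, which neurons switch on within minutes of activity, 6 were lower in CR in all regions (30%, near the 24.4% of all genes) and 2 higher (10%, against 22.3%), with a relative median of -0.15. Dusp6, a phosphatase that limits ERK signalling, differed by -0.64, -0.09 and -0.70, the transcription factor gene Klf4 by -0.73, -0.05 and -0.55, and Egr4 by -0.29, -0.09 and -0.74. Fos itself differed by -0.15, 0.24 and -0.11. Btg2, an antiproliferative factor, was higher in CR by 0.59, 0.34 and 0.19. Region and slide cannot be told apart in these regional values.

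Fuel genes were mixed. Of 19 genes of fatty acid oxidation and ketone use, 6 were higher in CR in all regions (31.6%) and 3 lower (15.8%), against 22.3% and 24.4% of all genes, shares that serve for the next 4 lists too. Angptl4, a lipoprotein lipase inhibitor induced by fasting, differed by 0.26, 0.87 and 0.82, Cpt1a, which admits fatty acids to mitochondria, by 0.27, 0.50 and 0.41, and the monocarboxylate transporter gene Slc16a1 by 0.61, 0.43 and 0.30 (limma, adjusted p = 0.16, 0.18 and 0.29). Acadvl, which starts oxidation of very long chains, was lower in CR by 0.31, 0.21 and 0.26. Pdk4, a brake on glucose oxidation that fasting induces in muscle and liver, differed by -0.08, 0.13 and -0.09. Sterol and fatty acid synthesis had 22 measured genes, 7 higher and 8 lower, and of 21 genes of glucose uptake and glycolysis, 7 were higher and 4 lower. Of 23 genes of the respiratory chain and ATP synthase, 8 were higher and none lower, and of 24 ribosomal protein genes 1 was higher and 2 lower. Chaperone genes were lower in CR in all regions in 8 of 20 cases (40%, against 24.4%) and higher in 2 (10%, against 22.3%), with a relative median of -0.10 that shrank to -0.03 without the amygdala pair. Pdia4, a protein disulphide isomerase, differed by -1.03, -0.21 and -0.49, and the cochaperone gene Hsph1 by -0.53, -0.32 and -0.41.

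Feeding peptide genes differed between CR and RFR in hypothalamus by less than 1 log2 unit. Agrp had levels of 0.98 in CR, 1.13 in RFR and 0.76 in AD there, and Npy levels of 1.84, 1.63 and 1.50 in the same order. Pomc was at 3.92 in CR and 4.07 in RFR, both below the 4.88 of AD, and Cartpt, a satiety peptide gene, at 4.34, 3.94 and 4.31. Hcrt was higher in CR than in RFR by 0.57 and Pmch, the melanin-concentrating hormone precursor, by 0.64 in hypothalamus, with a single array each and no test. Hcrt differed by -0.79 in amygdala, so the direction was not shared. Among 11 measured receptors for feeding signals, Npy2r, an inhibitory receptor of Npy neurons, differed by 0.89, 0.73 and 0.18, Ntrk2, the receptor of Bdnf, by 0.39, 0.53 and 0.29, and the orexin receptor gene Hcrtr1 by -0.38, -0.32 and -0.32 (limma, adjusted p = 0.22, 0.21 and 0.35). The leptin receptor and insulin receptor probes, Lepr and Insr, were well above background on none of the 6 arrays. Of 21 GABA and glutamate receptor genes, 6 were higher in CR in all regions (28.6%, against 22.3% of all genes) and 8 lower (38.1%, against 24.4%). Gabra2, a GABA-A receptor subunit, differed by -0.65, -0.63 and -0.30 (limma, adjusted p = 0.16). Of 10 measured serotonin and dopamine genes, 5 were higher in all regions (50%, against 22.3%) and none lower, led by the serotonin receptor Htr1a with 0.65, 0.00 and 0.35.

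**Figure D5:**
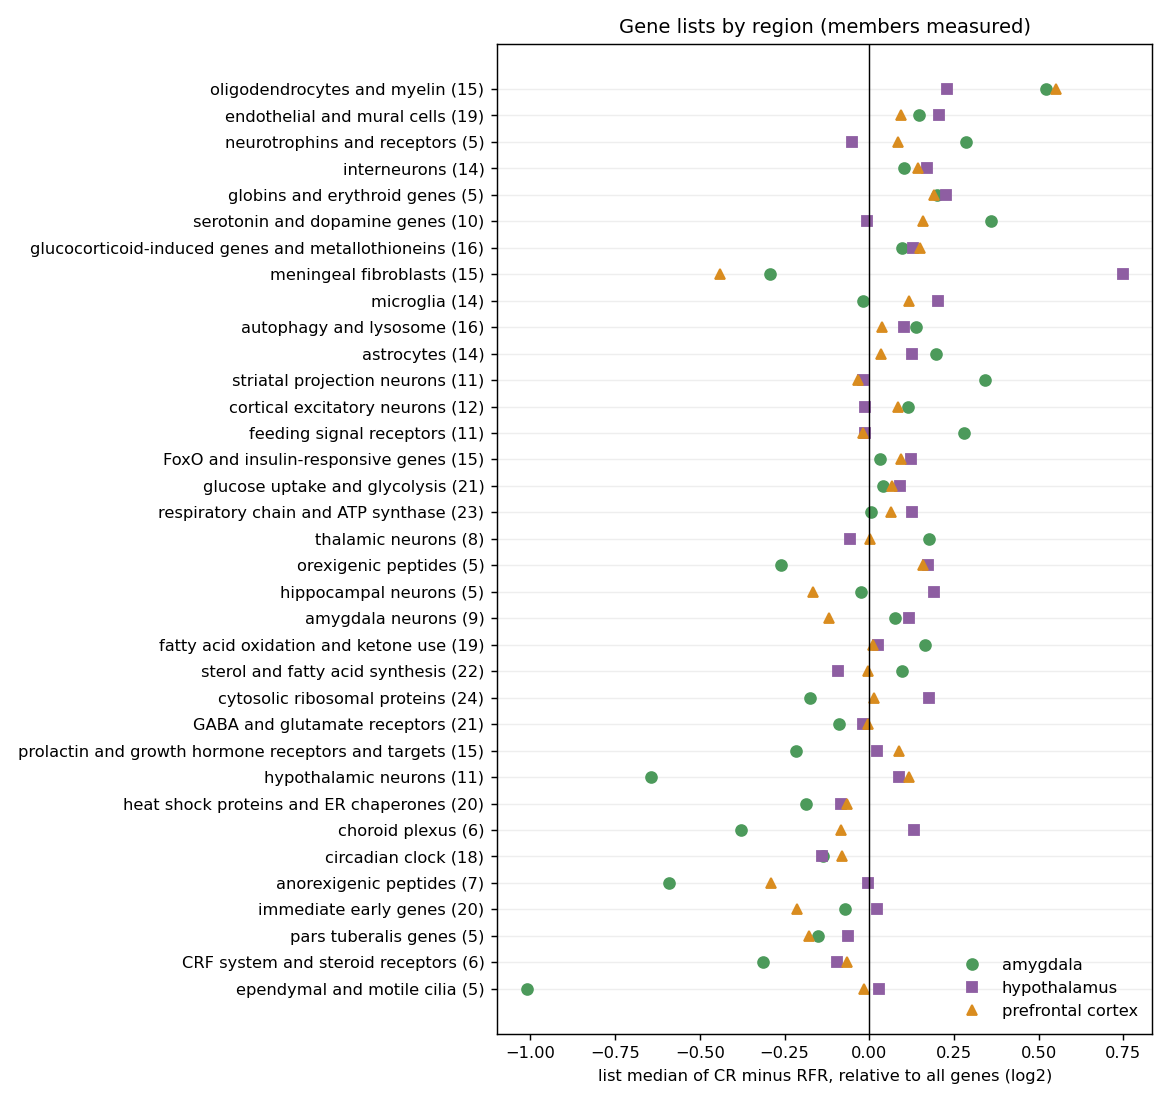
Median CR minus RFR of the measured members of each gene list, relative to the median of all genes in that region (horizontal axis, log2), with 1 symbol per region and the number of members in brackets. The oligodendrocyte list lies at 0.23 to 0.55 in all regions, whereas the meningeal list lies at 0.75 in hypothalamus and at -0.29 and -0.44 in the other regions.

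Some lists differed in direction or size between regions. Meningeal fibroblast genes, markers of the brain's covering membranes, were higher in CR in hypothalamus for 15 of 15 measured members, and in 1 and 0 of the 15 in amygdala and prefrontal cortex, where the relative medians were -0.29 and -0.44. The organic anion transporter gene Slc22a6 was at 1.23, -0.85 and 0.29 in CR and at 1.59, -2.45 and 0.98 in RFR, a difference of 1.60 in hypothalamus. Aldh1a2, a retinoic acid-synthesising enzyme, differed by -0.26, 1.44 and -0.57. The summed level of this list in hypothalamus was 97.0 in CR, 54.1 in RFR and 43.1 in AD. The hypothalamus pair shared a slide, so slide does not separate those arrays. In amygdala, choroid plexus and ependymal genes were dimmer in CR: Ttr, the transthyretin gene, differed by -2.29, Calml4 by -2.78 and Folr1 by -1.73 there, against 0.70, 0.18 and 0.00 in hypothalamus. The ependymal list had relative medians of -1.01, 0.03 and -0.01 and the hypothalamic neuron list -0.64, 0.09 and 0.12, both lowest in amygdala, whose CR array had a slide of its own. Lists of other neighbouring tissues had relative medians there of 0.34 for striatal projection neurons (10 of 11 members higher), 0.18 for thalamic neurons and -0.02 for hippocampal neurons. The part of the dissection in these values was not tested.

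Within single regions no test was possible. A difference of at least 2-fold was counted among genes well above background on both arrays of the pair. In amygdala 160 of 12202 genes were lower in CR (1.31%) and 104 higher (0.852%). In hypothalamus 35 of 11749 genes were lower (0.298%) and 27 higher (0.23%), and in prefrontal cortex 40 of 11846 were lower (0.338%) and 57 higher (0.481%). With the authors' table the share of higher genes was 56.0% in place of 39.4% in amygdala and 81.0% in place of 58.8% in prefrontal cortex. Amygdala thus had the most 2-fold differences, and its CR array is the one scanned on another day.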

How the data were processed

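Per the file headers, the scanner output comes from Agilent Feature Extraction 9.5.1.1 for 1-colour whole mouse genome arrays. The processed signal is an intensity that the software had background-subtracted and detrended within the array, and the deposited median spot and background signals are intensities too. The deposited quality flags (of another kind, 0 or 1) mark outliers, saturation and spots well above background. The authors' deposited table holds a ratio to the AD array of the region: 99.28% to 99.36% of its values lay within 0.01 log2 units of ratios from the scanner files after 1 constant per array, of 0.00495 to 0.131.

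Each array was scaled to the 75th percentile of all its noncontrol spots on the log2 scale. Outlier spots were then left out, and repeated spots of 1 probe were averaged. Of 41174 probes, 22951 were named through RefSeq accessions and 18223 were not, giving 16358 genes. The brightest probe stood for a gene. Genes well above background on at least 3 arrays, with a value on at least 6, were fitted with limma 3.58.1 in R 4.3.3 (region plus diet, 9 arrays, 4 residual degrees of freedom, Benjamini-Hochberg adjustment at 0.05). The fit was tested on simulated data with independent noise on each array and no pool shared by the arrays of a diet. That test therefore does not bear on the p-values of regions that share a pool. Promoters come from a RefSeq table (GRCm38.p6). The number of arrays limits the precision.

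Lists were described by members measured on all 6 CR and RFR arrays, with no set test. Named are genes past the threshold, 12 per direction by the smallest of 3 regional differences of 1 sign, genes seen in 1 diet alone, leading list members and members a description needs, and genes opposed between regions. Values of some list members are not reported here, although counts and medians include them. Members and lists were chosen with earlier results of these data known. Alternatives changed the background correction (normexp, offset 50, on median signals because the mean planned is not in the files), scaling, source, filter, probe choice, variances and slide term, or left out arrays or regions. Python 3.11.15 with pandas 2.3.3 was used for the rest.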

Additional observations from a re-analysis of the deposited data

Results flagged for a closer look

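Among genes well above background on all 6 arrays, 7 had CR minus RFR differences of at least 1 log2 unit with opposite signs in a pair of regions, and 5 of them are named here with 1 gene list whose regional medians had opposite signs and a size of at least 0.3 in both of a pair of regions. With 1 array per region and diet, the difference between regions was not tested. Gas2, a cytoskeletal regulator, differed by 0.27 in amygdala, -1.72 in hypothalamus and 1.80 in prefrontal cortex. Prkch, a protein kinase C, differed by 1.12, -2.37 and -0.24 in that order of regions. Glyctk, a glycerate kinase, differed by -0.02, -1.42 and 1.91. Aldh1a3, a retinoic acid-synthesising enzyme, differed by -1.13, 1.67 and -1.01. Nod2, a sensor of bacterial peptides, differed by 0.04, -1.09 and 1.51. For Gas2, Prkch, Glyctk and Nod2 the RFR hypothalamus level was above AD: -1.30, -1.59, -2.02 and -2.54, against -3.85, -3.75, -2.86 and -3.69. A CR array also stood above AD for each of them. In prefrontal cortex Gas2, Glyctk and Nod2 were at -2.86, -0.86 and -3.23 in CR and at -5.17, -2.44 and -4.44 in AD. In amygdala Prkch was at -3.11 in CR and at -5.15 in AD. The meningeal fibroblast list had medians relative to all genes of -0.29, 0.75 and -0.44.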

How the results depend on the processing

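Region is the pairing in the model, and no further pairing was possible with 1 array per region and diet. The count of genes past the threshold, 2, was 40 with normexp, 21 with the authors' table, 1 with no filter, 24 among genes well above background on all 9 arrays (which leaves out Prl and Gh), 1 with the 6 arrays alone, 41 with trended and robust variances, 0 with slide as a fixed term, 15 with dim values raised to the floor, 1 without amygdala and 1 without prefrontal cortex. Leaving out 1 array gave 1 to 2. With normexp the fitted difference was -2.67 for Prl and -1.41 for Gh. These are smaller in size than the bounds of RFR over CR, 3.67 and 1.91 log2 units, which hold for the main setting only. Prl missed the threshold with the 6 arrays alone (-5.88, adjusted p = 0.052) and with slide (-5.64, adjusted p = 0.20). Gh missed it with no filter (-3.85), slide (-4.01), raised dim values (-1.91), without amygdala (-3.71) and without prefrontal cortex (-3.94), and without any 1 array (-4.07 to -3.58). In total, 54 other genes were past the threshold in at least 1 of 19 alternatives, 45 of them lower in CR, and 16 in 4 or more, among them Dnase1l2, Col11a1, Thpo, Dok3 and Stac3. Of 499 values of other named genes, 0 reversed. Apart from Acss3, these genes were chosen for the largest differences of the same sign in every region. Leaving out a region could therefore not reverse them. With no filter, with the 6 arrays alone or with trended and robust variances, the fitted difference stays the same by design. The count of 0 is therefore no measure of how secure these differences are.

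Genes higher in CR in all regions numbered 4075 with the amygdala pair left out, over 2 regions, and genes lower numbered 1726 with the authors' table. The share of higher genes among those with 1 direction was 47.8%, but 65.0% with the authors' table, 40.8% with normexp and 51.5% with quantile scaling. At an unadjusted p under 0.05 it was 44.7%, but 33.0% with normexp, 66.7% with the authors' table and 59.9% with slide. Counts of 2-fold differences, 264, 62 and 97, were 115, 31 and 32 with normexp, and 158 in prefrontal cortex with the mean of all probes. Of these, 39.4% in amygdala and 58.8% in prefrontal cortex were higher in CR, but 27.8% and 40.6% with normexp. Of 37 list medians, 16 changed sign in at least 1 alternative, 10 of them without the amygdala pair: among these were the clock with the authors' table (0.066), FoxO genes with all probes (-0.024), GABA and glutamate receptors with normexp (0.012) and without the amygdala pair (0.016), ependymal genes (0.052) and hypothalamic neurons (0.12) without that pair, marrow genes with the authors' table (0.15) and neurotrophins with all probes (-0.042). The cause was not tested in any of these.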
